A study of Mus musculus with 12 samples.

Results

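The motor genes described here are those that encode kinesins (symbol Kif with a number), kinesin light chains (Klc) and the cytoplasmic dynein 1 subunits with symbols Dync1, Dynll or Dynlt. The ciliary motor genes Kif3a, Kif3b and Kif17 were left out, and this naming rule does not take in the dynein light chain gene Dynlrb1. Of 51 such genes in the RefSeq annotation, 45 were measured by a probe set that names 1 gene, among 19902 genes measured in all. The 6 others, Kif28, Klc2 and the near-identical copies Dynlt1a, Dynlt1b, Dynlt1c and Dynlt1f, had no such probe set. Where a gene had several, the brightest on average was used. They divide into 12 mitotic kinesins, 10 transport kinesins, 3 kinesin light chains, 6 ciliary or centriolar kinesins, 6 other kinesins, 5 dynein heavy, intermediate and light intermediate chains, and 3 dynein light chains. A probe set named for the pseudogene Kif4-ps was not counted.

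Kinesins and cytoplasmic dynein are ATP-driven motors that walk on microtubules in opposite directions. Most transport kinesins move vesicles, mitochondria and protein complexes toward microtubule plus ends, while dynein, with its activator dynactin, carries cargo toward minus ends. Mitotic kinesins build and position the spindle and are made mainly by dividing cells. Photoreceptors do not divide, and depend on motors to supply the outer segment and the synapse.

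The 12 arrays hold RNA of fluorescent cones sorted out of the retinas of mice of the C3H/HeNCrl strain, in which the Pde6b rd1 mutation causes the rods to die. Adeno-associated virus was injected under the retina at postnatal day 21 to 28 and used the mouse cone arrestin promoter (mCAR) to drive either EGFP, the control construct, or eNpHR-EYFP, a halorhodopsin that pumps chloride into the cell under light, joined to a yellow fluorescent protein. There were 4 arrays of 500 EGFP cones at 110 days, 4 of 500 EGFP cones at 220 days and 4 of 300 eNpHR-EYFP cones at 165 days, labelled as biological replicates. No array measured uninfected cones or eNpHR-EYFP cones at another age. The construct, the cell number and a non-linear course with age therefore cannot be told apart, and in sorted samples fewer cells of a type and less RNA per cell cannot be told apart either.

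Levels are log2 intensities. The EGFP columns of the deposited table were shifted against the probe identifiers in its lower part, and were realigned to the eNpHR-EYFP columns before use. Over probes, an EGFP and an eNpHR-EYFP array then correlated at a median of 0.944, against 0.421 as deposited. The realignment itself sought this likeness. On lines in place, which were not moved, the median was 0.934. Of the motor genes, 28 lay on moved lines and 17 on lines in place. The median intensity was alike in the groups (2.72 to 2.83 on the log2 scale), but the 95th percentile was 115 to 135 intensity units on EGFP arrays and 173 to 186 on eNpHR-EYFP arrays, so the counts and the main differences are given as deposited and also after quantile normalization, which makes the intensity distributions of all arrays equal. The mean level of 10 cone markers was 4.72 to 7.59 on the arrays of EGFP cones at 110 days, 5.74 to 6.78 at 220 days and 6.88 to 8.54 in eNpHR-EYFP cones. Of the 10, 3 were higher in eNpHR-EYFP, and 2 after quantile normalization (limma test described below), beside 23.0% and 16.1% of all genes. All 10 differences were positive in both forms, with a median of 1.625, or 1.15 after quantile normalization. An unadjusted limma p under 0.05 was found for 7 as deposited and 4 after quantile normalization. Of all 19902 genes, 8936 and 8226 had one. Arr3 (2.63), Opn1sw (2.18), Pde6c (2.02), Gngt2 (2.01) and Pde6h (1.73) exceed every motor gene's difference as deposited, though Opn1sw and Pde6h did not pass.

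Lists for other retinal cells also gave signal, with means given here in the same order of groups. Counts of markers higher or lower in eNpHR-EYFP are by the same limma test (adjusted p under 0.05). They stand beside 23.0% of all genes higher and 10.1% lower, or 16.1% and 12.4% after quantile normalization. The 7 Müller glia markers had means of 4.97 to 6.24, 5.98 to 6.27 and 5.90 to 7.31 (1 higher; 1 higher and 1 lower after quantile normalization). The 7 bipolar cell markers had 4.57 to 5.21, 5.05 to 5.80 and 4.88 to 5.46 (1 lower in both forms), and the 8 amacrine cell markers 4.0 to 4.64, 4.52 to 5.39 and 4.45 to 5.31 (3 higher; 2 higher and 1 lower after quantile normalization). The 5 horizontal cell markers had 3.58 to 3.98, 3.61 to 3.97 and 4.04 to 5.07 (2 higher and 1 lower in both forms), with Calb1 (2.20) and Sept4 (1.88) the higher ones. Both differences exceed that of every motor gene as deposited. The 7 ganglion cell markers had 2.91 to 3.08, 3.0 to 3.14 and 3.36 to 3.64 (4 higher; 2 after quantile normalization), and the 6 rod markers 3.67 to 4.48, 3.76 to 4.06 and 4.0 to 4.62 (2 higher; 0 in the limma fit after quantile normalization, where 1 had an unadjusted p under 0.05). Means of 2.59 to 2.76, 2.56 to 2.64 and 2.92 to 3.04 for 8 microglia markers (4 higher; 2 after quantile normalization) lay near the array medians. Astrocyte, pigment epithelium and endothelial markers had means of 2.04 to 2.71 in all groups, below the array medians. The part of other cells in the results below was not tested.

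The promoters of a pair of mitotic kinesins and of a dynein light chain are shown because the genes fall in different classes of the comparison below: Kif15 was lower in eNpHR-EYFP cones, Kif11 did not pass the test, and Dynll1 was higher. The sequences are the 250 bases before the RefSeq start, in the direction of the gene (GRCm38.p6, chr9:122950831-122951080 on the plus strand for Kif15, chr19:37376132-37376381 on the plus strand for Kif11, and chr5:115300991-115301240 on the minus strand for Dynll1). Capitals mark TTTGAA, the core of the cell cycle homology region found in many promoters of mitotic genes, and the CCAAT box, each on either strand, so that TTCAAA and ATTGG are the same motifs read on the other strand.
Kif15: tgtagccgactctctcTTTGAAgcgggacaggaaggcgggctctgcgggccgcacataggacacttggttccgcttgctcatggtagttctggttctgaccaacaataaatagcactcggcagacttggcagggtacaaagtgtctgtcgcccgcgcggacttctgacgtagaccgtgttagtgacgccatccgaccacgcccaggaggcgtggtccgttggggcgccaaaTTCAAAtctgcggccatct
Kif11: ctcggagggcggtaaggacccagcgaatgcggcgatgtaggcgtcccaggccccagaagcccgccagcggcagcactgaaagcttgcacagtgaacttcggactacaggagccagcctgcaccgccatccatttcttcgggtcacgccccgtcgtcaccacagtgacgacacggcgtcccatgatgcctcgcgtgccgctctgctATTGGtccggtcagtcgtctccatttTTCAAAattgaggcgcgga
Dynll1: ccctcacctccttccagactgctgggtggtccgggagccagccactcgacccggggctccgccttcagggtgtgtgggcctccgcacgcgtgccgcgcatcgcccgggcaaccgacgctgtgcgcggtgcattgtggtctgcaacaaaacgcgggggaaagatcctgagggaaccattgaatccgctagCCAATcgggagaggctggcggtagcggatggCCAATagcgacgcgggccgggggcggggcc
In both mitotic promoters a TTTGAA on the opposite strand begins 19 bases before the start, whereas the Dynll1 window holds CCAAT at 61 and 30 bases before it and no TTTGAA. Of 42 promoter entries for 37 of the motor genes, 8 (19.0%) held TTTGAA, against 16.0% of all 32851 promoters of this length. The mitotic kinesins held it in 5 of 11 entries and the transport kinesins in 1 of 9. CCAAT was found in 7 of 11 mitotic entries, in 2 of 9 transport kinesin entries and in 33.8% of all promoters. Both of those transport kinesin entries are overlapping windows of Kif1b that hold the same sites. The letters describe these windows and do not show that a factor binds.

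The main comparison took the 165-day eNpHR-EYFP cones against the average of both EGFP ages. It sets cones carrying the chloride pump beside cones carrying the fluorescent protein alone. Construct, cell number and a non-linear course with age cannot be told apart in it. Of the 45 motor genes, 12 passed (limma, Benjamini-Hochberg adjusted p under 0.05 over all probes), 7 higher and 5 lower, where 33.1% of all genes passed, 23.0% higher and 10.1% lower. The motor genes' 26.7% is near that background. Those higher were the dynein light chains Dynll1 and Dynll2, the dynein light intermediate chain Dync1li1, the kinesin light chains Klc1 and Klc3, and the dim kinesins Kif2b and Kif19a. Those lower were all kinesin heavy chains: the neuronal kinesin-1 genes Kif5a and Kif5c, the endosome motor Kif16b, the spindle motor Kif15 and the cilium-linked Kif27. After quantile normalization 7 motor genes were again higher and 5 lower, against 16.1% and 12.4% of all genes, and 11 were called under both. Klc1 lost its call and Kif18a gained one. The median difference was 0.07 over the motor genes as over all genes, and 0.03 and 0.02 after quantile normalization. In 5 of the genes called higher and 3 of those called lower, the eNpHR-EYFP arrays did not overlap the EGFP arrays, which held for 14.2% of all genes upward and 6.15% downward. After quantile normalization this was so for 3 of the higher and 3 of the lower genes, against 9.9% and 8.23% of all genes.

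**Figure D1:**
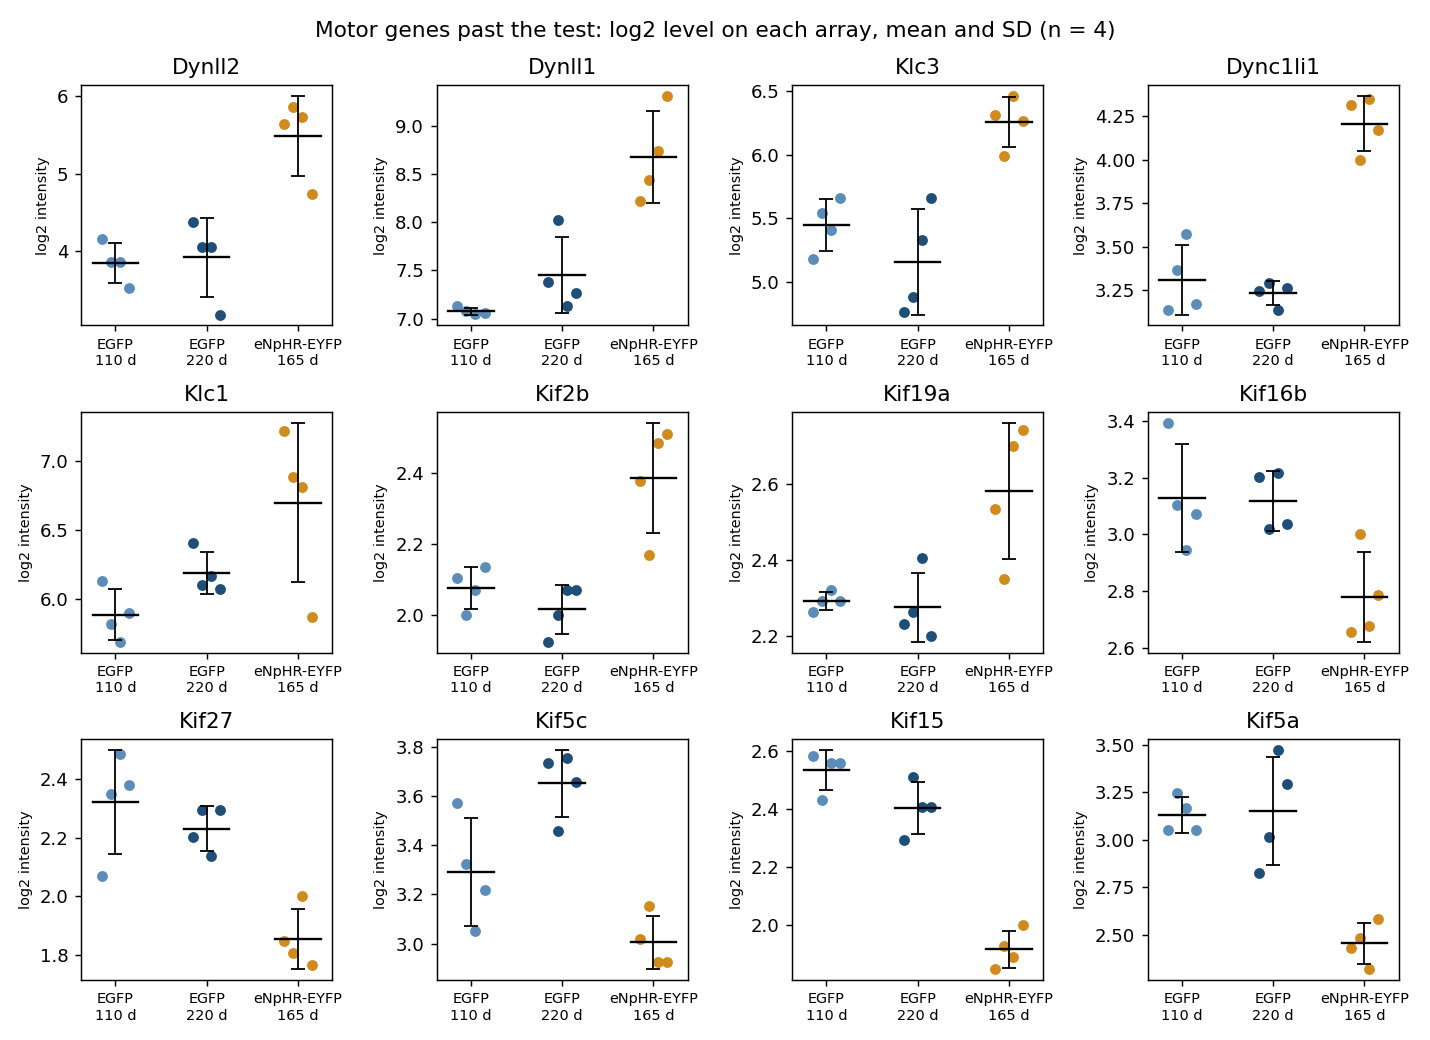
Log2 levels of the 12 motor genes that passed the test, 1 panel a gene, with 1 point an array. A line marks each group's mean, and a bar its SD. From left to right are EGFP at 110 days, EGFP at 220 days and eNpHR-EYFP at 165 days (4 arrays each). The vertical axes differ between panels and do not start at 0; in 8 panels, such as Dynll2 (4.73 to 5.86 against 3.19 to 4.38), the eNpHR-EYFP points lie apart from all EGFP points.

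Among the mitotic kinesins, 1 of 12 rose (Kif2b), 1 fell (Kif15) and 10 did not pass. Of all genes, 23.0% rose and 10.1% fell, or 9.33% and 6.41% of those with a mean level below 2.5. The median difference of the 12 kinesins was -0.02 with or without quantile normalization. All but Kif22 lay below the array's own median on every array, and the class spanned 1.72 to 3.42. Values this low come in visible steps, since the deposited intensities were rounded to 0.1, and whether a dim probe set stands above background is unknown.

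Kif15, a plus-end motor that helps Kif11 keep spindle poles apart and also has roles in migrating neurons, measured 2.58, 2.43, 2.56 and 2.56 in EGFP cones at 110 days, 2.29, 2.51, 2.41 and 2.41 at 220 days, and 1.85, 1.93, 1.89 and 2.0 in eNpHR-EYFP cones. Every eNpHR-EYFP array lay below every EGFP array. The difference was -0.55 ± 0.07 (SE, n = 4 against 8; adjusted p = 0.00018, limma), and the same -0.55 after quantile normalization. All 12 values lay below the array medians, so no fold is given. Kif2b, a microtubule-depolymerizing kinesin of the kinetochore, measured 2.10, 2.0, 2.07 and 2.14 at 110 days, 1.93, 2.0, 2.07 and 2.07 at 220 days, and 2.38, 2.17, 2.49 and 2.51 in eNpHR-EYFP cones. These groups did not overlap either, and the difference was 0.34 ± 0.08 (adjusted p = 0.0080, limma), also 0.34 after quantile normalization.

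The main spindle motors did not pass. The difference was -0.14 ± 0.08 for Kif11 (adjusted p = 0.25, limma; 95% interval -0.32 to 0.05), which slides spindle microtubules apart. It was -0.06 ± 0.08 for Kif23 (0.64; -0.23 to 0.11) and -0.05 ± 0.10 for Kif20a (0.78; -0.27 to 0.18), both needed for cytokinesis. Kif18a, which limits chromosome movement, had a difference of 0.28 (adjusted p = 0.062), and 0.29 with an adjusted p of 0.038 after quantile normalization (limma). Of 19 other genes of dividing cells, 1 was higher (Ube2c, 0.52) and 1 lower (Ccnb2, -0.81), beside 23.0% and 10.1% of all genes. The median of the 19 was -0.05. After quantile normalization 1 was again higher and 1 lower, with Ube2c at 0.52 and Ccnb2 at -0.99. Their mean level was 2.53 to 2.66 and 2.5 to 2.65 on EGFP arrays of the younger and older age, and 2.51 to 2.68 in eNpHR-EYFP cones.

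Among the transport kinesins, 0 of 10 rose and 3 fell, Kif5a, Kif5c and Kif16b (limma; 4 of the 10 had an unadjusted p under 0.05, and the quantile fit also gave 0 higher). Of all genes, 23.0% were called higher and 10.1% lower, and 8936 of 19902 had an unadjusted limma p under 0.05. The share lower was 13.4% for mean levels from 2.5 to 3, where Kif5a lies. It was 16.5% from 3 to 4, where Kif5c and Kif16b lie. The class median was 0.05, and 0.04 after quantile normalization, and 3 of the 10 lay below the array median on every array. Kif5a, Kif5b and Kif5c encode the heavy chains of conventional kinesin, the motor that carries mitochondria and vesicles along axons. Kif5a and Kif5c are enriched in neurons and Kif5b is made in most cells.

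Kif5a measured 3.05, 3.25, 3.17 and 3.05 at 110 days, 2.83, 3.02, 3.47 and 3.29 at 220 days, and 2.43, 2.49, 2.32 and 2.58 in eNpHR-EYFP cones. All 4 eNpHR-EYFP values lay below the lowest EGFP value. The group means were 3.13 ± 0.10, 3.15 ± 0.29 and 2.46 ± 0.11 (SD, n = 4), and the difference was -0.69 ± 0.11 (adjusted p = 0.0011, limma), with the same -0.69 after quantile normalization. The 4 eNpHR-EYFP values lay below the array medians, where the background is unknown, so no fold is given.

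Kif5c measured 3.57, 3.32, 3.05 and 3.22 at 110 days, 3.73, 3.46, 3.75 and 3.66 at 220 days, and 3.02, 3.15, 2.93 and 2.93 in eNpHR-EYFP cones. The eNpHR-EYFP values lay below all those at 220 days but overlapped those at 110 days. The difference was -0.47 ± 0.10 (adjusted p = 0.0059, limma), and -0.50 after quantile normalization. Against a single age it passed at 220 days (adjusted p = 0.0030) and not at 110 days (0.11).

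Kif5b measured 3.94, 3.79, 4.03 and 3.78 at 110 days, 4.26, 3.84, 4.03 and 4.03 at 220 days, and 4.55, 4.26, 3.74 and 4.04 in eNpHR-EYFP cones. The groups overlapped throughout, and the difference was 0.19 ± 0.14 (adjusted p = 0.35, limma; 95% interval -0.11 to 0.49).

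Whether the 3 heavy chains moved unequally was tested on the log ratio of each pair within an array, among 20 pairs of related motor genes (exact permutation test of 4 against 8 arrays, two-sided, Benjamini-Hochberg over the 20 pairs; the smallest possible p is 0.0040). The change in the ratio of Kif5a to Kif5b was -0.87 ± 0.19 (exact permutation p = 0.0081, adjusted 0.040), and in that of Kif5b to Kif5c 0.65 ± 0.17 (0.0081, adjusted 0.040). The ratio of Kif5a to Kif5c changed by -0.22 ± 0.13 (exact permutation, adjusted p = 0.32). After quantile normalization the first 2 changes were -0.72 and 0.53, with adjusted p of 0.054 and 0.061 by the same exact permutation test, so that neither passed. Of the 20 pairs, 4 passed as deposited, the others being Kif2b with Kif2c (0.42) and Kif18a with Kif18b (0.48), and 0 passed after quantile normalization, where 6 had an unadjusted exact p under 0.05.

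Kif16b, which moves early endosomes, measured 2.94 to 3.39 at 110 days, 3.02 to 3.22 at 220 days and 2.66 to 3.0 in eNpHR-EYFP cones. The groups overlapped on the highest eNpHR-EYFP array, and the difference was -0.34 ± 0.10 (adjusted p = 0.025, limma). The call was lost without eNpHR-EYFP replicate 1 (0.079) or replicate 3 (0.078). Kif1a and Kif1b, carriers of synaptic vesicle precursors and mitochondria, did not pass, at 0.23 ± 0.08 (adjusted p = 0.052, limma) and 0.06 ± 0.14 (0.79). Without EGFP replicate 4 at 110 days Kif1a passed (0.26; adjusted p = 0.025, limma).

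**Figure D2:**
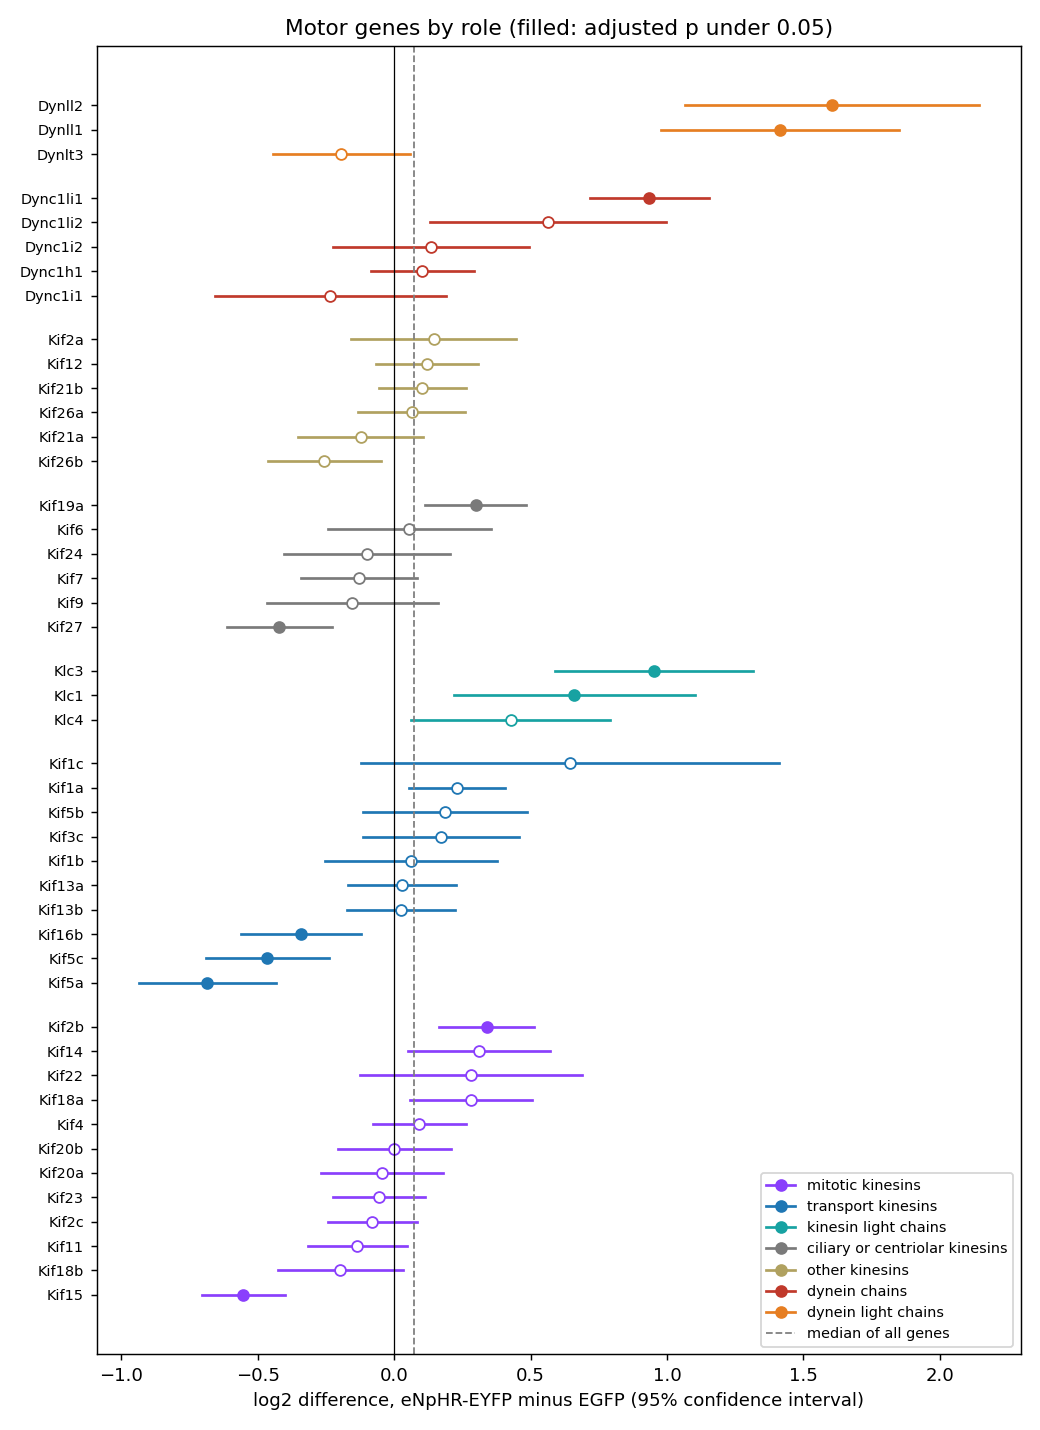
Difference of each of the 45 motor genes, eNpHR-EYFP minus the average EGFP level over 110 and 220 days in log2 units, by class, with its 95% interval; filled points passed the test. Dynll2 and Dynll1 lie farthest to the right (1.60 and 1.41) and Kif5a farthest to the left (-0.69), while most mitotic kinesins lie near 0.

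The kinesin light chains link kinesin-1 to its cargo. Of the 3 measured, Klc1 and Klc3 were higher, and the median difference of the 3 was 0.66, or 0.22 after quantile normalization. As deposited, 38.8% of all genes with a mean level from 4 to 6 were called higher, and 59.5% of those at 6 or more. Klc3 measured 5.18, 5.54, 5.41 and 5.66 at 110 days, 4.77, 4.88, 5.33 and 5.66 at 220 days, and 6.31, 5.99, 6.46 and 6.26 in eNpHR-EYFP cones. The eNpHR-EYFP arrays lay above all EGFP arrays as deposited and overlapped them after quantile normalization. The difference was 0.95 ± 0.17 (adjusted p = 0.0014, limma) and fell to 0.54 (0.048) with quantile normalization.

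Klc1, the main light chain of neurons, measured 6.13, 5.82, 5.69 and 5.90 at 110 days, 6.41, 6.10, 6.17 and 6.07 at 220 days, and 7.22, 6.89, 6.82 and 5.87 in eNpHR-EYFP cones. Replicate 4 of eNpHR-EYFP lay among the EGFP arrays and the other 3 above them. The difference of 0.66 ± 0.20 (adjusted p = 0.030, limma) became 0.22 (0.41) after quantile normalization. The adjusted p also rose to between 0.051 and 0.10 without EGFP replicate 2 or 4 at 220 days or without eNpHR-EYFP replicate 1, 2 or 3. Klc4 did not pass, at 0.43 ± 0.17 (adjusted p = 0.078, limma).

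Cytoplasmic dynein 1 is built on the heavy chain Dync1h1, with intermediate chains (Dync1i1, Dync1i2), light intermediate chains (Dync1li1, Dync1li2) that bind cargo adaptors, and light chains. Of the 8 measured subunits within the naming rule, 3 rose and 0 fell (limma). The 4 with an unadjusted limma p under 0.05 were all positive, and 3 rose and 0 fell in the quantile fit. This share, 37.5%, stands beside 23.0% of all genes called higher, and beside 24.7% to 59.5% of all genes in the ranges of level above 3. An unadjusted limma p under 0.05 was found for 8936 of all 19902 genes. The median difference of the 8 subunits was 0.35, and 0.20 after quantile normalization. Among the dynein chains 1 of 5 passed, and among the light chains 2 of 3.

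Dync1li1 measured 3.14, 3.36, 3.57 and 3.17 at 110 days, 3.25, 3.29, 3.14 and 3.26 at 220 days, and 4.31, 4.0, 4.35 and 4.17 in eNpHR-EYFP cones. The lowest eNpHR-EYFP array stood above the highest EGFP array. The means were 3.31 ± 0.20, 3.24 ± 0.07 and 4.21 ± 0.16 (SD, n = 4), a difference of 0.94 ± 0.10 or 1.91-fold (adjusted p = 6.4e-05, limma), and 0.81 after quantile normalization (0.00024).

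The other chains did not pass as deposited. Dync1li2 differed by 0.56 ± 0.20 (adjusted p = 0.052, limma), Dync1h1 by 0.10 ± 0.09 (0.42) and Dync1i1 by -0.23 ± 0.19 (0.41). Dync1li2 passed without EGFP replicate 1 at 110 days (adjusted p = 0.025, limma) or at 220 days (0.0499) and without eNpHR-EYFP replicate 4 (0.020). Dync1i2 differed by 0.13 ± 0.16 (adjusted p = 0.59, limma), and by -0.07 after quantile normalization. The ratio of Dync1li1 to Dync1li2 changed by 0.37 ± 0.23 (exact permutation, adjusted p = 0.28 over the 20 pairs).

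Dynll1 and Dynll2 encode the LC8 light chains, small dimers that also bind many proteins other than dynein. Dynll2 measured 4.16, 3.86, 3.86 and 3.52 at 110 days, 4.38, 4.06, 4.06 and 3.19 at 220 days, and 5.64, 5.86, 5.73 and 4.73 in eNpHR-EYFP cones. The groups did not overlap, although replicate 4 was the lowest in each. The means were 3.85 ± 0.26, 3.92 ± 0.51 and 5.49 ± 0.51 (SD, n = 4). The difference of 1.60 ± 0.25, or 3.04-fold (adjusted p = 0.00062, limma), was the largest of the 45 motor genes. It was 1.33 after quantile normalization (0.0021). Dynlrb1, outside the naming rule, rose more, as given below.

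Dynll1 measured 7.13, 7.07, 7.05 and 7.06 at 110 days, 7.38, 8.02, 7.13 and 7.26 at 220 days, and 8.22, 8.44, 8.74 and 9.31 in eNpHR-EYFP cones. The EGFP arrays at 110 days were within 0.1 of each other, and all eNpHR-EYFP arrays lay above the EGFP arrays. The difference was 1.41 ± 0.20 or 2.66-fold (adjusted p = 0.00037, limma), and 0.87 (0.0093) after quantile normalization, where the groups overlapped. The change in the ratio of Dynll1 to Dynll2 was -0.19 ± 0.50 (exact permutation, adjusted p = 0.73 over the 20 pairs). Dynlt3, a light chain of another family, did not pass, at -0.19 ± 0.11 (adjusted p = 0.24, limma).

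**Figure D3:**
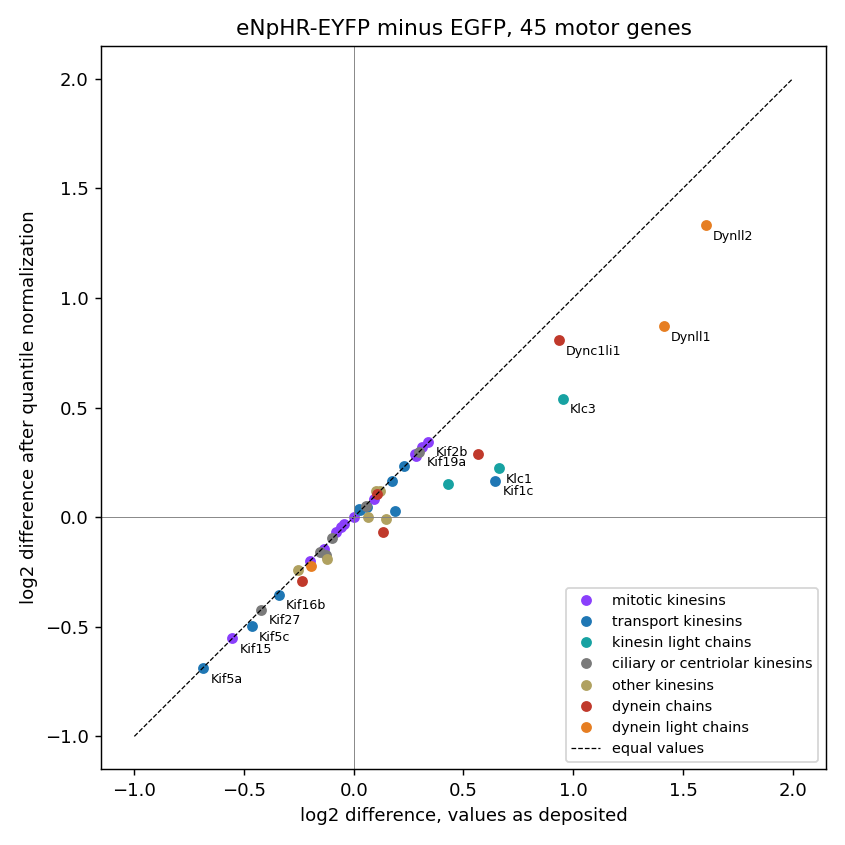
Difference of each of the 45 motor genes, eNpHR-EYFP minus EGFP in log2 units, as deposited on the horizontal axis and after quantile normalization on the vertical axis, coloured by class, with the line of equal values. Most points below a difference of 0.5 lie near the line; the light chains lie below it, with Dynll1 at 1.41 and 0.87 and Klc1 at 0.66 and 0.22.

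The gap between both forms of the values followed the level of the gene. Over all genes with a mean level of 6 or more, the median difference was 0.58 as deposited and 0.10 after quantile normalization, and 59.5% were called higher as deposited. For levels from 4 to 6 it was 0.34 and 0.06, with 38.8% called higher, and below 2.5 it was 0.01 in both, with 9.33% called higher and 6.41% lower. Of the motor genes, 3 lay in the highest bin (Kif1c, Klc1 and Dynll1), 7 in the next and 17 below 2.5. All 5 motor genes called lower had a mean level under 4, where quantile normalization moved the median of all genes by at most 0.06.

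Among the ciliary or centriolar kinesins, 1 of 6 rose (Kif19a) and 1 fell (Kif27), with a median of -0.11. Of all genes, 23.0% rose and 10.1% fell. At mean levels below 2.5, where Kif19a and Kif27 lie, 9.33% rose and 6.41% fell. Kif27, a relative of the hedgehog regulator Kif7 needed for motile cilia, measured 2.07, 2.35, 2.49 and 2.38 at 110 days, 2.20, 2.29, 2.14 and 2.29 at 220 days, and 1.85, 1.81, 2.0 and 1.77 in eNpHR-EYFP cones. The groups did not overlap, and the difference was -0.42 ± 0.09 (adjusted p = 0.0043, limma), also -0.42 after quantile normalization. Kif19a, which controls the length of motile cilia, measured 2.26 to 2.32, 2.20 to 2.41 and 2.35 to 2.74 in EGFP cones at 110 and 220 days and in eNpHR-EYFP cones, with overlap. Its difference was 0.30 ± 0.08 (adjusted p = 0.021, limma), and the call was lost without eNpHR-EYFP replicate 3 (0.073) or replicate 4 (0.065).

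Among the 6 other kinesins 0 passed in either direction, where 33.1% of all genes passed (limma). Of the 6, 1 had an unadjusted limma p under 0.05 (Kif26b, -0.26), as had 8936 of all 19902 genes, and 0 passed in the quantile fit. A second, dimmer Kif26b probe set differed by 0.24 ± 0.09 (adjusted p = 0.068, limma), and the mean of both by -0.0082. Kif7 had a second, dimmer probe set, with a difference of -0.61 ± 0.08 (adjusted p = 0.00028, limma), against -0.13 ± 0.10 (0.37) for the brighter one. Their mean gave -0.37 (0.0018), so the result for Kif7 depends on the probe set. Of the spindle motor gene Kif14, neither probe set passed alone (0.31 and 0.16), and their mean did (0.23; adjusted p = 0.040, limma). Kif7, Kif14 and Kif26b were named after their values were seen.

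Setting mitotic against transport motors, 1 of 12 mitotic kinesins rose and 1 fell, while of the 21 transport kinesins, light chains and dynein subunits 5 rose and 3 fell. The median differences were -0.02 and 0.17, or -0.02 and 0.10 after quantile normalization. Split by part of the motor, the 34 kinesin heavy chains gave 2 higher and 5 lower, against 23.0% and 10.1% of all genes. The remaining 11, light chains and dynein subunits, gave 5 higher. The difference between these counts was not tested, and level differs along with them, as 20 of the 34 heavy chains and none of the others lay below the array median on every array. The mitotic and transport motors differed in level too, with 11 of 12 mitotic kinesins and 3 of the 21 transport motors below the array median on every array, and the share of genes called higher grows with the level as given above.

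Against each EGFP age alone, 10 motor genes were called against 110 days, 6 higher and 4 lower, where 28.0% of all genes were called, 19.9% higher and 8.11% lower. Against 220 days 10 were called, again 6 higher and 4 lower, where 25.2% of all genes were called, 17.8% higher and 7.4% lower. Against both ages 8 were called, 5 higher and 3 lower, and these were the 8 whose arrays did not overlap. The share of all genes called against both ages was not counted, so this joint count is a description. Arrays did not overlap for 14.2% of all genes upward and 6.15% downward. After quantile normalization 5 were higher and 3 lower against 110 days (all genes 23.3%, with 13.6% higher and 9.64% lower), and 5 and 4 against 220 days (20.6%, with 11.3% and 9.35%). Both comparisons use the same eNpHR-EYFP arrays. For Dynll2 the differences were 1.64 and 1.57, for Dync1li1 0.90 and 0.97, and for Kif5a -0.67 and -0.70.

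Between EGFP cones at 220 and 110 days, 0 of 45 motor genes passed, as for all genes (0.0%, also after quantile normalization), with the smallest adjusted p at 0.651 (limma). An unadjusted p under 0.05 was found for 3 motor genes, and for 1221 of all genes. The 3 were Kif5c (0.36; adjusted p = 0.65, limma), the microtubule-stabilizing kinesin Kif21a (0.34; 0.69) and Kif26a (0.25; 0.72), with positive differences in the direction of 220 days. The mean of the amacrine cell markers, which had 6 of 8 at an unadjusted p under 0.05 in this comparison and all 8 positive, is given above. Bipolar cell markers had 4 of 7 at an unadjusted p under 0.05, with Isl1 at 1.71. The part of either list in these values was not tested. The 3 smallest p-values downward were those of Kif15 (-0.13), Klc3 (-0.29) and Kif6 (-0.23). None of the 6 passed after adjustment.

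Partners of the motors were taken from lists of known complexes. Of 10 dynactin subunits, 6 rose and 0 fell (median 0.50). After quantile normalization 4 rose and 2 fell (median 0.24). Of the 10, 9 lay above the array median on every array, and 38.8% to 59.5% of all genes with a level of 4 or more were called higher as deposited. Dctn3 rose by 1.07 ± 0.13, Dctn2 by 1.04 ± 0.10 and the capping protein Capzb by 0.79 (limma), and by 0.54, 0.64 and 0.36 after quantile normalization. Of 13 regulators and adaptors of dynein, 4 rose and 3 fell in both forms (median -0.07). Of all genes 23.0% rose and 10.1% fell, or 16.1% and 12.4% after quantile normalization. Dynlrb1, the roadblock light chain that joins the dynein intermediate chains, rose by 1.87 ± 0.15 (adjusted p = 9.9e-06, limma), or 1.34 after quantile normalization, and Pafah1b1 (Lis1), which holds dynein on microtubules, rose by 0.63, or 0.35. Ndel1, its partner, fell by 1.04 and Rab11fip3 fell by 0.50, with -1.10 and -0.62 after quantile normalization.

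The counts in this paragraph stand beside 23.0% of all genes called higher and 10.1% lower, or 16.1% and 12.4% after quantile normalization. Above the array median on every array lay 9 of 11 linkers and 7 of 8 tubulins, and the share called higher grows with level. Of 11 cargo linkers of kinesins, 4 rose and 0 fell (median 0.28), led by Fez1 (1.37), Kif1bp (0.90) and Mapk8ip2 (0.55). After quantile normalization 2 rose, Fez1 (1.06) and Kif1bp (0.55), and Mapk8ip2 did not pass (0.24). Of 8 tubulins, the subunits of the track itself, 3 rose and 1 fell (median 0.33), while 3 rose and 3 fell after quantile normalization (median -0.05). Tubb3, a neuronal tubulin, rose by 1.01, Tubb5 by 1.0 and Tubb4a by 0.73, while Tubb2b fell by 0.55; after quantile normalization these were 0.71, 0.58, 0.67 and -0.62. Of 4 minus-end and other kinesins outside the naming rule, Kifc3 rose by 0.57 and Kifc2 fell by 0.51, with 0.51 and -0.53 after quantile normalization.

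Kif1c, a transport kinesin of the kinesin-3 family, did not pass (0.64 ± 0.35, adjusted p = 0.20, limma; 0.17 after quantile normalization) and was chosen after its values were seen, as the motor gene with the highest correlation with the cone markers. It measured 5.15, 6.57, 7.35 and 6.09 at 110 days, 5.33, 6.49, 6.45 and 6.51 at 220 days, and 6.67, 6.77, 7.21 and 6.90 in eNpHR-EYFP cones. The mean of the 10 cone markers was 4.72, 7.09, 7.59 and 5.06 at 110 days, 5.74, 6.57, 6.78 and 6.74 at 220 days, and 7.37, 6.88, 8.15 and 8.54 in eNpHR-EYFP cones. The arrays low in Kif1c were low in the cone markers. Over the 8 EGFP arrays Pearson's r was 0.87 (exact permutation p = 0.0052, adjusted over 45 genes 0.23) and Spearman's rho 0.90 (exact permutation p = 0.0046, adjusted 0.12). Without the 2 arrays farthest from the median marker level, r was 0.97. Of the 45 correlations 0 passed, so this one is a description. It pools both ages, since each holds only 4 arrays. A second, dimmer Kif1c probe set had a difference of 0.02.

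**Figure D4:**
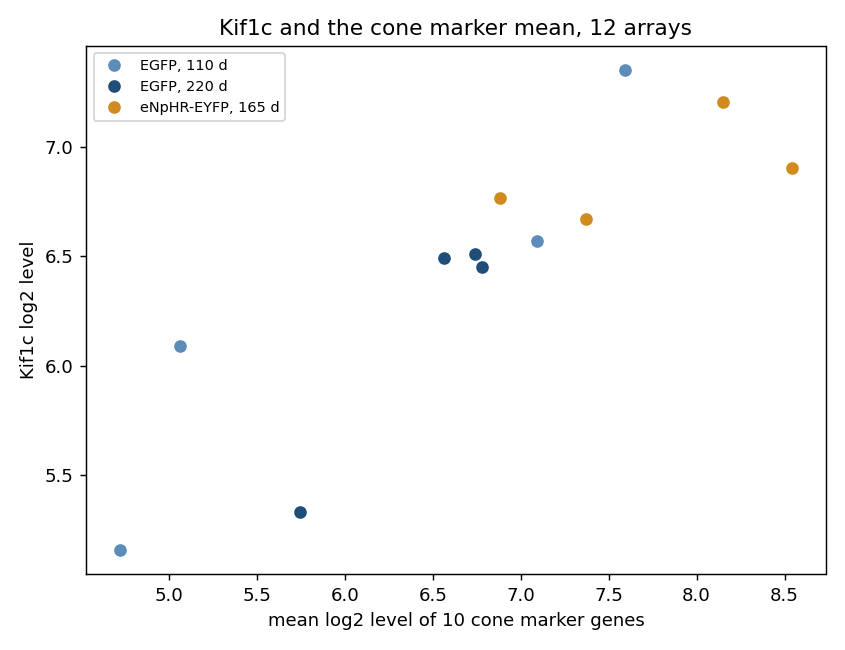
Log2 level of Kif1c on the vertical axis against the mean log2 level of 10 cone markers on the horizontal axis, 1 point for each of the 12 arrays, coloured by group; the axes do not start at 0. The 3 EGFP arrays with the lowest marker means (4.72, 5.06 and 5.74) have the 3 lowest Kif1c levels (5.15, 6.09 and 5.33).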

How the data were processed

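Sorted mouse cones were profiled on 12 Affymetrix whole-transcript arrays (4 a group). The authors deposited 1 table of linear intensities made with RMA and affy, per the submitters' processing notes; versions and the array's genome build are not given in the sources used here. Whether the RNA of 300 or 500 cells was amplified is not given either. Intensities are rounded to 0.1. The number of arrays limits the precision.

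The EGFP columns held 34729 values for 34760 probes and no longer matched the identifiers. They were realigned by a forward-backward match to the eNpHR-EYFP columns (Student's t, 3 degrees of freedom, scale 0.25 log2). This moved 21031 lines, left out 114 as ambiguous and kept 34615 probes. As a check, lines were removed at random over the whole table from some eNpHR-EYFP arrays, which were then matched to the others. That check did not cover a match between different groups, as was needed here. Because the eNpHR-EYFP columns guided the match, it may favour likeness between groups on moved lines. Of the kept probes, 21587 name 1 gene in the platform annotation, 1270 several and 11758 none.

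Log2 intensities, with no pseudocount, were fitted with limma 3.58.1 (R 4.3.3) in 1 model of 3 groups, with Benjamini-Hochberg adjustment over all kept probes and a threshold of 0.05. Pairs of genes used exact permutation tests. Alternatives were quantile normalization, median centring, a filter on dim probes, array weights, trended and robust moderation, the mean of a gene's probes, lines in place only, a replicate block, and leaving out arrays. Named genes were every motor gene past the threshold, a fixed set of core motors, and the 3 smallest p-values a direction for age. Per-array values are given for called genes whose groups do not overlap and for core motors. Members and lists were chosen with earlier results of these data known. Promoters are from RefSeq (GRCm38.p6), with gene symbols matched for 37 motor genes.

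Same-numbered replicates of different groups had correlations of deviations from -0.04 to 0.14, so the numbers were not taken to pair samples. The labels call the arrays biological replicates without naming animals.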

Additional observations from a re-analysis of the deposited data

Results flagged for a closer look

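Among 69 groups of 4 arrays (23 named genes), 3 held an array whose gap to the nearest other exceeded Dixon's 95% critical value, and chance alone flags about 1 in 20 groups. All 3 were mitotic kinesins in EGFP cones at 110 days, at levels where intensities come in steps. Kif11 was 2.29 in replicate 3, against 2.07 to 2.10 in the others. Kif15 was 2.43 in replicate 2, against 2.56 to 2.58. Kif23 was 2.14 in replicate 4, against 2.35 in each of the others. Leaving out the array changed the call of none of these 3 genes in the comparison of eNpHR-EYFP with EGFP.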

How the results depend on the processing

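Of the 12 called motor genes, 9 kept call and direction under every alternative run for them, and 0 changed direction. Kif16b, Klc1 and Kif19a lost their calls without the 3 EGFP arrays lowest in the cone gene Arr3 (adjusted p 0.093, 0.055 and 0.091, limma) and without single arrays as given in the report, and Klc1 also under quantile normalization. Without those 3 arrays 9 motor genes were higher and 4 lower. Array weights gave 11 higher, the filter on dim probes 3 lower, and lines in place, which hold only 17 of the motor genes, 4 higher and 2 lower, 4 called against each EGFP age, a mitotic median of 0.31 (3 genes) and a dynein median of 0.85 (2 genes). The mean of probes gave 8 higher and 6 lower. The share of all genes called is not given for these settings, nor for those in the next paragraph, so the counts are descriptions.

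Leaving out 1 array gave 5 to 9 higher, 4 to 6 lower, 7 to 11 called against 110 days, 8 to 12 against 220 days and 0 between ages. The median difference then ranged from -0.04 to -0.0021 for mitotic kinesins, from 0.06 to 0.22 for transport kinesins with light chains, and from 0.31 to 0.43 for dynein subunits. Of 11 named genes not called, 2 changed direction. Leaving out 1 array, the difference of Kif1b ranged from -0.042 to 0.138 and that of Dync1i2 from -0.042 to 0.261, and Dync1i2 was -0.066 after quantile normalization. Dync1li2 passed in 6 settings and Kif1a in 4: both without the 3 arrays (adjusted p 0.0499 and 0.029, limma) and with array weights (0.029 and 0.040), Dync1li2 with the filter on dim probes (0.040), Kif1a with trended and robust moderation (0.045), and the rest as given in the report. The fit with the replicate number as a block gave 7 higher, 5 lower, 9 called against each EGFP age and 0 between ages. The filter left no mitotic median, and a fit of only the compared groups is the same fit here for the main comparison, which uses all arrays. Dim genes near the array median limit what differences these arrays resolve.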
